A study of Triticum turgidum subsp. durum with 12 samples.

Results

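The block consisted of the low confidence gene models of wheat chromosome 7B whose identifiers run from TraesCS7B01G392200LC to TraesCS7B01G464000LC. It held 200 of the 72120 gene models in the count table, against 1504 other low confidence models and 3219 high confidence models of the same chromosome. The range was chosen by the counts of the 3 genotypes themselves, since models within it lacked counts in whole genotypes, so the presence, levels and calls of its members are given as a description, without a test.

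RNA was sequenced from leaves of *phyB*-null, *phyC*-null and WT plants of tetraploid durum wheat (*Triticum turgidum* subsp. *durum*), with 4 biological replicates per genotype. WT was the variety Kronos, which carries the photoperiod-insensitive *Ppd-A1a* allele, as do both mutants. Each mutant line combines mutations induced with EMS (ethyl methanesulfonate, a chemical that mainly causes single-base changes) in the A and B copies of its phytochrome gene, and was then backcrossed to Kronos, the parent that also served as the 1 WT group of both comparisons. All plants were 8 weeks old, grown with 8 h of light and 16 h of dark at 20 °C by day and 18 °C by night, and sampled 4 h after dawn. The labels name the leaf both as the third leaf and as the youngest fully expanded leaf. Each mutant was 1 line, so that a difference between line and WT can belong to the mutated phytochrome or to anything else that the line carries, and these cannot be told apart here.

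PHYB and PHYC are red and far-red light receptors that move between an inactive and an active form and control the expression of many genes, among them those of flowering. In wheat their genes are on chromosomes other than 7B. Low confidence models are parts of the wheat annotation with weaker evidence than the high confidence genes, and include gene fragments, pseudogenes and pieces of transposons. A model without counts may be absent from the DNA of a line, present but not transcribed, or so different in sequence that its reads no longer map to a unique place. RNA counts cannot tell these apart, and the DNA of the lines was not analysed here. The *PHYB* and *PHYC* identifiers were not paired with names in the sources used here, so that the mutated genes, like leaf markers, could not be looked up in the counts.

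In each genotype a model was called silent when it had fewer than 3 counts summed over the 4 libraries, present when it had at least 3 counts in each library, and partial otherwise. By this rule 94 members were present in all genotypes, 6 were silent in *phyC*-null only, 9 were silent in WT only, and 91 were partial in at least 1 genotype. No member was silent in *phyB*-null only, and none was silent in 2 genotypes while present in the other. The 15 members with a clear difference were 7.5% of the block. The same rule marked 1.60% of the other low confidence models of 7B (24 models), 0.547% of low confidence models outside 7B (110 of 20124), 0.559% of the high confidence models of 7B (18 of 3219) and 0.372% of all models. The libraries held between 37365465 and 58944135 counts on genes, so that a model with fewer than 3 counts in 4 libraries was not detectable at this depth rather than shown to be absent.

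**Figure D1:**
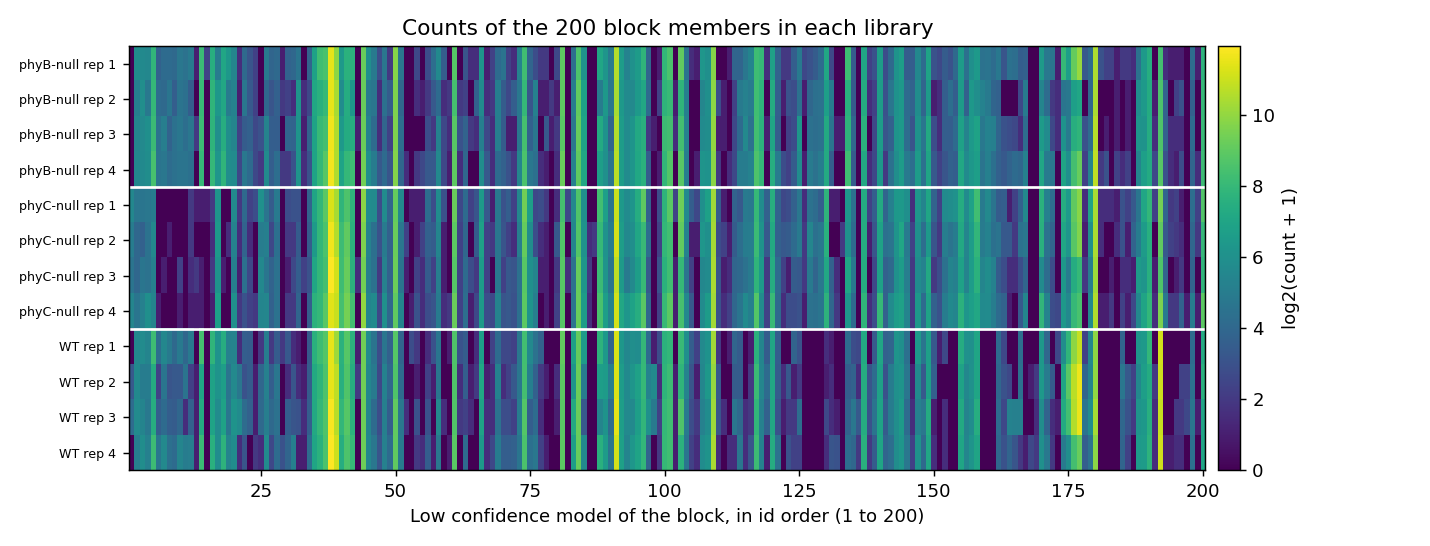
Log2 of the count plus 1 for the 200 members in id order across the 12 libraries, with the *phyB*-null, *phyC*-null and WT libraries from top to bottom. The *phyC*-null-silent models lie near the start of the block and the WT-silent models lie in its later part, with 107 members between the 2 runs.

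Along the id order the differences fell into 2 runs, with 1 switch between them. The first run was silent in *phyC*-null only and reached from TraesCS7B01G396300LC to TraesCS7B01G398500LC, a stretch of 23 annotated models, of which 14 were members. The second was silent in WT only and reached from TraesCS7B01G438500LC to TraesCS7B01G452800LC, a stretch of 144 annotated models with 41 members. Between them, from TraesCS7B01G398600LC to TraesCS7B01G438400LC, lay 107 members, of which 57 were present in all genotypes, 50 were partial and none had a clear difference. Before the first run lay 5 members and after the second 33, again without a clear difference. Identifier numbers follow the order along the chromosome in steps of 100, and the distances in bases were not available from the tables used here.

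The models silent in *phyC*-null only had counts in every library of the other genotypes, as the presence rule requires. TraesCS7B01G398400LC, the most abundant of its 6 models, had 133, 145, 176 and 228 counts in *phyB*-null, 0, 0, 1 and 0 in *phyC*-null, and 173, 102, 117 and 212 in WT. TraesCS7B01G398500LC, the last model of the run, had 79, 30, 58 and 57 counts in *phyB*-null, 0, 2, 0 and 0 in *phyC*-null, and 37, 23, 25 and 40 in WT. Neither model gave a *phyC*-null library that came near the lowest library of *phyB*-null or WT. The ratio of *phyB*-null to *phyC*-null was 800 for TraesCS7B01G398400LC (95% counting interval 143 to 31643), and that of WT to *phyC*-null was 687 (123 to 27197). For TraesCS7B01G398500LC the ratios were 131 (35.9 to 1091) and 71.1 (19.3 to 593.9). The intervals cover counting error only.

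The other models of this run were weaker and had the same form. TraesCS7B01G396400LC had 17, 16, 34 and 26 counts in *phyB*-null, 0, 0, 1 and 0 in *phyC*-null, and 46, 24, 17 and 49 in WT. TraesCS7B01G396500LC had 17, 24, 13 and 18 counts in *phyB*-null, 0, 1, 0 and 0 in *phyC*-null, and 28, 8, 11 and 20 in WT. TraesCS7B01G396600LC had 16, 11, 21 and 21 counts in *phyB*-null, none in any *phyC*-null library, and 16, 9, 10 and 17 in WT. Every *phyB*-null and WT library was above every *phyC*-null library in these 3 models, which the presence rule itself requires. With a floor of 3 counts over the 4 *phyC*-null libraries, the ratio to *phyC*-null for TraesCS7B01G396600LC was at least 27.0 in *phyB*-null and at least 19.7 in WT. At the start of the run, TraesCS7B01G396300LC had 12, 17, 22 and 23 counts in *phyB*-null, 0, 0, 0 and 1 in *phyC*-null, and 19, 4, 11 and 25 in WT. None of these weaker models had more than 1 count in a *phyC*-null library.

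**Figure D2:**
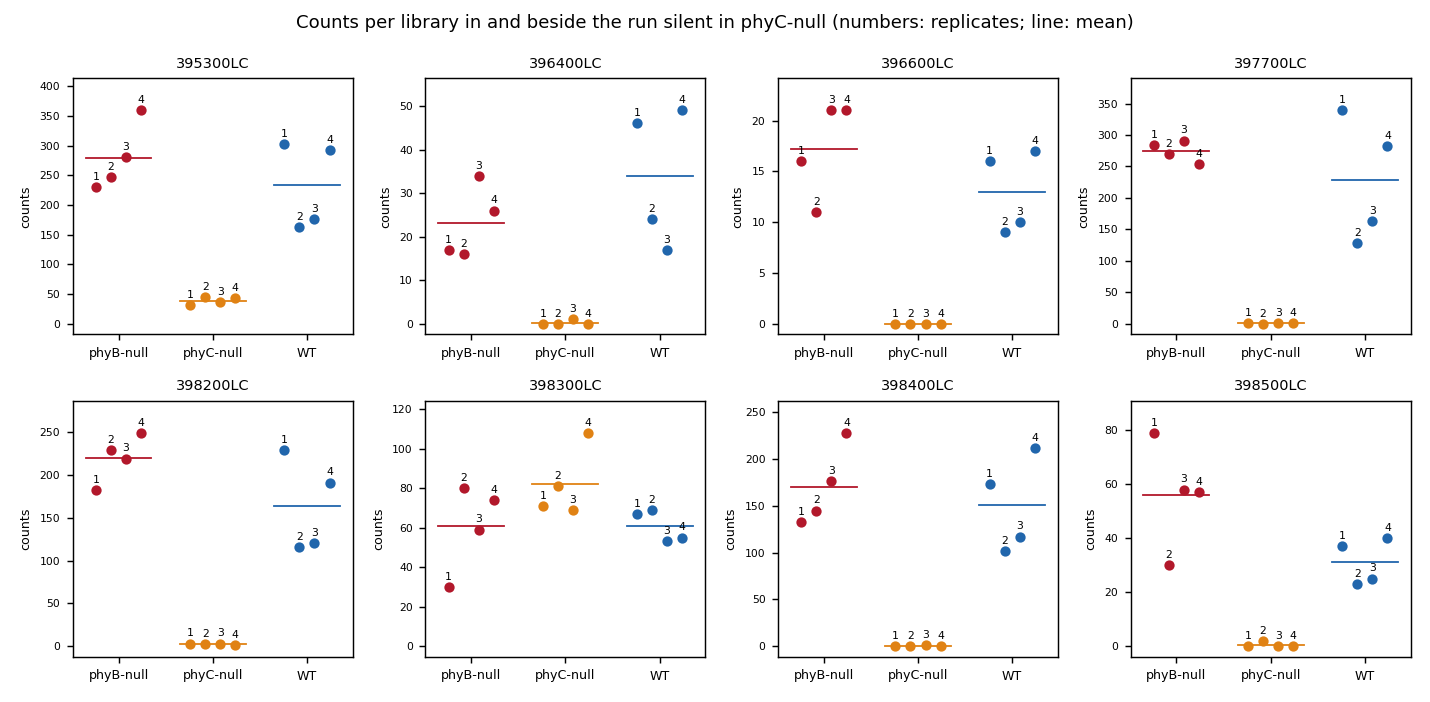
Counts per library of models in and beside the stretch where *phyC*-null was silent, with the replicate number beside each point and a line at each genotype mean. TraesCS7B01G395300LC lies before the stretch and was present in all genotypes. TraesCS7B01G398300LC, within the stretch, had counts in all 12 libraries, while TraesCS7B01G398400LC had 1 count over the 4 *phyC*-null libraries.

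Some neighbours in the same stretch just missed the rule because they had a trace of counts. TraesCS7B01G397700LC had 284, 270, 291 and 254 counts in *phyB*-null, 1, 0, 1 and 1 in *phyC*-null, and 339, 128, 163 and 282 in WT, so that its 3 counts in *phyC*-null lay at the limit. TraesCS7B01G398200LC had 182, 229, 219 and 249 counts in *phyB*-null, 3, 2, 3 and 1 in *phyC*-null, and 229, 116, 120 and 191 in WT. TraesCS7B01G397000LC had 22, 20, 19 and 23 counts in *phyB*-null, none in *phyC*-null, and 15, 23, 2 and 31 in WT, and was left out of the clear models by the 1 WT library with 2 counts. In TraesCS7B01G397700LC and TraesCS7B01G398200LC the *phyC*-null libraries were below every library of the other genotypes, with ratios of *phyB*-null to *phyC*-null of 430 (147 to 2087) and 115. With silence set instead at 5% of the highest genotype mean, 9 members were silent in *phyC*-null only, TraesCS7B01G396900LC, TraesCS7B01G397700LC and TraesCS7B01G398200LC being the added ones. Stricter limits lowered the number, to 3 with at least 10 counts required for presence, 2 with limits on TPM and 1 with no count allowed for silence.

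The stretch was not empty in *phyC*-null. TraesCS7B01G398300LC, between TraesCS7B01G398200LC and TraesCS7B01G398400LC, had 30, 80, 59 and 74 counts in *phyB*-null, 71, 81, 69 and 108 in *phyC*-null, and 67, 69, 53 and 55 in WT. Its genotypes overlapped, with a log2 fold change of 0.23 (SE 0.22) for *phyC*-null over WT. It was the only member of this stretch present in all genotypes. Just past the end of the run, TraesCS7B01G398600LC had 43, 39, 42 and 53 counts in *phyB*-null, 48, 38, 35 and 63 in *phyC*-null, and 40, 49, 70 and 55 in WT, which also overlapped.

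The 5 members ahead of this run were not silent in *phyC*-null. The 4 of them present in all genotypes had a median log2 fold change of *phyC*-null over WT of -1.28, and 1 was within 2-fold. TraesCS7B01G395300LC had 230, 247, 280 and 359 counts in *phyB*-null, 31, 45, 36 and 43 in *phyC*-null, and 302, 163, 176 and 292 in WT. Every *phyC*-null library was below every other library, and the log2 fold change of *phyC*-null over WT was -2.78 (SE 0.28). TraesCS7B01G392900LC, the second member of the block, had 58, 35, 43 and 46 counts in *phyB*-null, 25, 15, 15 and 24 in *phyC*-null, and 47, 50, 54 and 34 in WT, again with no overlap between *phyC*-null and the rest and a log2 fold change of *phyC*-null over WT of -1.42 (SE 0.28). TraesCS7B01G393600LC had 50, 60, 49 and 50 counts in *phyB*-null, 24, 12, 24 and 36 in *phyC*-null, and 54, 31, 41 and 58 in WT. Its log2 fold change of *phyC*-null over WT was -1.15 (SE 0.34). TraesCS7B01G393700LC had 45, 27, 61 and 58 counts in *phyB*-null, 26, 22, 22 and 61 in *phyC*-null, and 41, 31, 27 and 36 in WT, and all genotypes overlapped. The first member was the opposite. TraesCS7B01G392200LC had no counts in *phyB*-null, 45, 32, 23 and 42 in *phyC*-null, and 0, 9, 18 and 0 in WT, with a ratio of *phyC*-null to *phyB*-null of at least 40.4.

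The WT libraries were uneven over the *phyC*-null-silent models. The summed CPM (counts scaled to the library size and its TMM normalization factor) of the 6 models was 6.84, 6.43, 7.48 and 7.88 in *phyB*-null, 0, 0.0647, 0.0446 and 0.0182 in *phyC*-null, and 7.80, 3.99, 4.02 and 8.51 in WT. WT replicates 2 and 3 were thus well under WT replicates 1 and 4 and under all *phyB*-null libraries, while every WT library was far above all *phyC*-null libraries. This order was seen in the data and then counted over members in which *phyC*-null was at least 4-fold below *phyB*-null and WT averaged at least 10 counts, a choice that does not use the order of the WT libraries. WT replicates 2 and 3 were the lowest pair in 11 of 14 such members (78.6%) and in 18 of the 97 members with less than a 4-fold difference in either direction (18.6%). The 11 include the 6 models in which the order was first seen, so that this count partly repeats them.

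The same order was read in 22 of 29 low confidence models of 7B ahead of the block (75.9%), in 10 of 23 high confidence models of 7B (43.5%) and in 57 of 289 models outside 7B (19.7%). Over all models with a WT mean of at least 10 counts it was 19.6%. The mirror order, with these libraries as the highest pair, was read in 1 of 14, 1 of 2 and 14 of 97 members with *phyC*-null at least 4-fold below, at least 4-fold above and within 4-fold of *phyB*-null, against 19.6% of all models. Some members had it, in part at lower counts. TraesCS7B01G399700LC had 0, 0, 7 and 3 counts in *phyB*-null, 64, 33, 47 and 42 in *phyC*-null, and 3, 15, 16 and 2 in WT. TraesCS7B01G426000LC had 0, 0, 1 and 0 counts in *phyB*-null, none in *phyC*-null, and 1, 51, 29 and 0 in WT, and TraesCS7B01G398700LC had 2, 26, 53 and 2 counts in WT, against at most 5 in any mutant library. In these members, as in TraesCS7B01G392200LC, WT replicates 2 and 3 were the higher ones. The labels name no batch, seed lot or plant that would set these 2 libraries apart. The paper states that the libraries were split over 2 sequencing lanes, each holding 2 replicates per genotype. Which replicates shared a lane is not given, so the lane cannot be told apart from other differences between these WT libraries. What the order comes from was not tested.

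The second run was silent in WT and present in both mutants. The models of this run were weaker than the strongest of the first, with a summed CPM over the 9 of 3.30 to 5.21 in *phyB*-null, 5.54 to 6.66 in *phyC*-null, and 0, 0, 0 and 0.0234 in WT. The only WT count in the 9 models was a single one in TraesCS7B01G452800LC. All 9 had at least 3 counts in each of the 8 mutant libraries, as the presence rule requires.

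At the near edge of the run, TraesCS7B01G438500LC had 7, 15, 21 and 30 counts in *phyB*-null, 22, 44, 28 and 22 in *phyC*-null, and none in WT. With the floor of 3 counts over the WT libraries, its ratio to WT was at least 25.1 in *phyB*-null and at least 34.0 in *phyC*-null. Its neighbours TraesCS7B01G438600LC and TraesCS7B01G438700LC had between 10 and 32 counts in every mutant library and none in WT. TraesCS7B01G438400LC, the member just before the run, had 5, 1, 0 and 1 counts in *phyB*-null, 2, 3, 3 and 1 in *phyC*-null, and none in WT, too few to place the edge.

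Further along, TraesCS7B01G448800LC and TraesCS7B01G448900LC had more counts in *phyC*-null than in *phyB*-null. TraesCS7B01G448900LC had 16, 11, 17 and 11 counts in *phyB*-null, 66, 31, 36 and 43 in *phyC*-null, and none in WT. TraesCS7B01G448800LC had 7, 19, 11 and 12 counts in *phyB*-null, 58, 23, 41 and 50 in *phyC*-null, and none in WT. Scaled to library size, the mutants did not overlap in TraesCS7B01G448900LC and overlapped in TraesCS7B01G448800LC, and neither passed an edgeR adjusted p below 0.01 between the mutants, with ratios of *phyC*-null to *phyB*-null of 2.73 for TraesCS7B01G448900LC and 2.99 for TraesCS7B01G448800LC.

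TraesCS7B01G450200LC, TraesCS7B01G450300LC and TraesCS7B01G450400LC were next to each other in the annotation and overlapped between the mutants. TraesCS7B01G450300LC is annotated as subunit 4 of splicing factor 3B, a protein complex that helps the spliceosome find the branch point of an intron. It had 23, 29, 39 and 36 counts in *phyB*-null, 49, 38, 58 and 54 in *phyC*-null, and none in WT, with ratios to the WT floor of at least 43.6 in *phyB*-null and at least 58.3 in *phyC*-null. TraesCS7B01G450200LC had 22, 38, 27 and 23 counts in *phyB*-null, 29, 30, 43 and 51 in *phyC*-null, and none in WT. In TraesCS7B01G450400LC the counts were 18, 14, 36 and 20 in *phyB*-null, 23, 20, 39 and 33 in *phyC*-null, and 0 in each WT library. In all 3 models the mutants overlapped, and WT was apart from both, as the presence rule requires. The last model, TraesCS7B01G452800LC, had 12, 29, 18 and 36 counts in *phyB*-null, 47, 26, 14 and 42 in *phyC*-null, and 0, 0, 0 and 1 in WT, with ratios to WT of 97.9 (17.2 to 3907) in *phyB*-null and 113 (20.0 to 4511) in *phyC*-null.

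**Figure D3:**
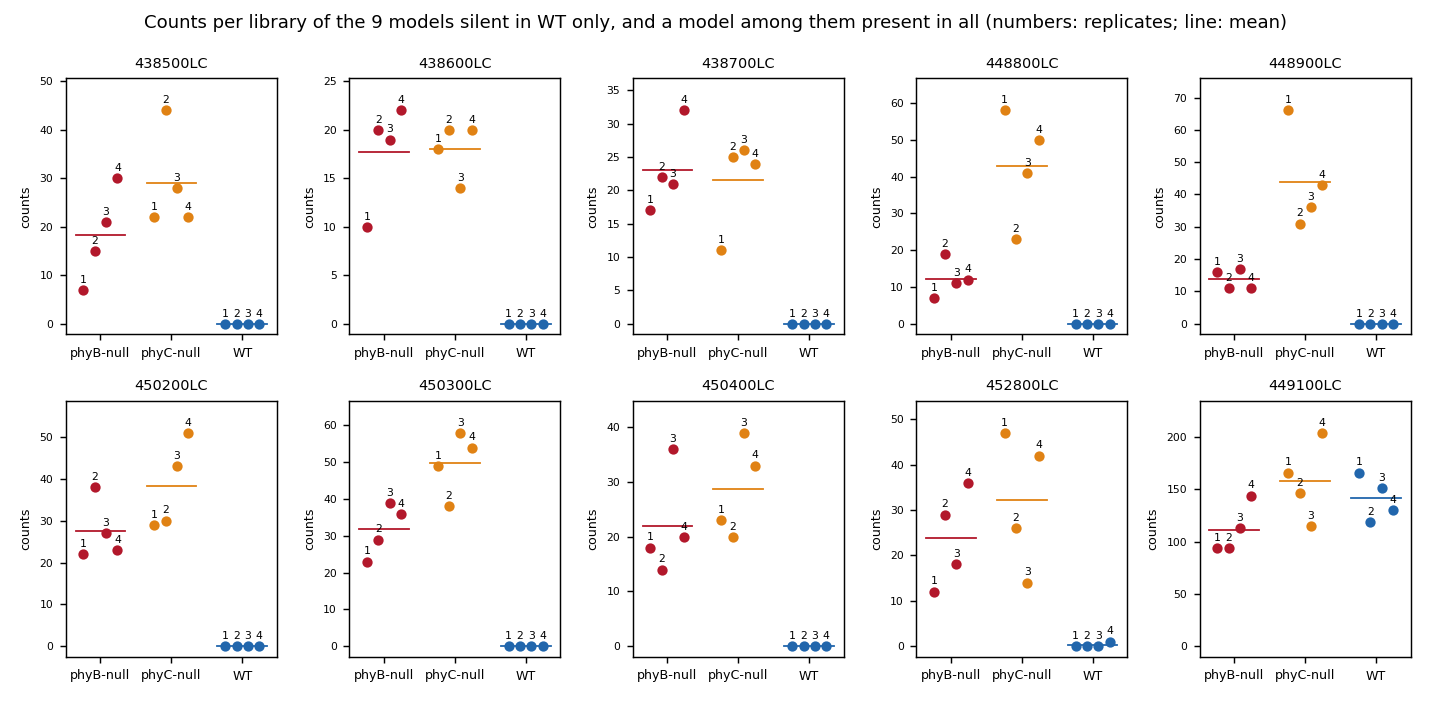
Counts per library of the 9 models silent in WT only and of TraesCS7B01G449100LC, which lies among them and was present in all genotypes, with replicate numbers and genotype means. The WT libraries hold 1 count over the 9 models and between 119 and 166 counts in each library for TraesCS7B01G449100LC.

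Models with full counts in WT were interleaved with the silent ones. Of the 41 members in this stretch, 18 were present in all genotypes, and of these 16 changed by less than 2-fold in *phyB*-null over WT and 16 in *phyC*-null over WT. TraesCS7B01G449100LC, between TraesCS7B01G448900LC and TraesCS7B01G450200LC, is annotated as FAR1-related sequence 3, of a family of transposase-derived transcription factors whose founding members act in phytochrome A signalling in *Arabidopsis*. It had 94, 94, 113 and 144 counts in *phyB*-null, 166, 146, 115 and 204 in *phyC*-null, and 166, 119, 151 and 130 in WT. TraesCS7B01G449300LC, annotated as a protein with armadillo repeats, a fold that binds other proteins, had 61, 81, 84 and 80 counts in *phyB*-null, 115, 98, 98 and 106 in *phyC*-null, and 63, 66, 56 and 71 in WT. WT overlapped *phyB*-null in both of these models, and it overlapped *phyC*-null in TraesCS7B01G449100LC but lay below it in TraesCS7B01G449300LC. In TraesCS7B01G446000LC, with 60 to 72 counts in *phyB*-null, 66 to 98 in *phyC*-null and 57 to 71 in WT, all genotypes overlapped.

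Other members were low in WT without being silent. TraesCS7B01G440000LC, annotated as resembling gar2, a nucleolar protein of fission yeast that takes part in making 18S ribosomal RNA, had 137, 107, 152 and 158 counts in *phyB*-null, 221, 190, 143 and 213 in *phyC*-null, and 2, 1, 5 and 2 in WT. It was 57.1-fold higher in *phyB*-null and 67.4-fold higher in *phyC*-null than in WT, and no WT library came near a mutant one. Members on either side of the run were similar. TraesCS7B01G432700LC, ahead of the run, had 26, 37, 48 and 32 counts in *phyB*-null, 28, 31, 22 and 51 in *phyC*-null, and 0, 0, 2 and 2 in WT. TraesCS7B01G461900LC, past its end, had 2, 13, 12 and 7 counts in *phyB*-null, 14, 9, 13 and 28 in *phyC*-null, and 0, 0, 0 and 1 in WT. The low WT counts therefore reached on either side beyond the 9 clear models, at least from TraesCS7B01G432700LC to TraesCS7B01G461900LC, with models at full WT level among them. At 5% of the highest genotype mean, 12 members were silent in WT only, TraesCS7B01G400700LC, TraesCS7B01G432700LC and TraesCS7B01G440000LC being the added ones.

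No member was silent in both mutants and present in every WT library. Under the count rule 7 members were silent in both mutants and partial in WT, among them TraesCS7B01G426000LC, whose counts lay almost wholly in WT replicates 2 and 3. TraesCS7B01G442400LC, inside the WT-silent stretch, had no counts in either mutant and 5, 2, 9 and 3 counts in WT. TraesCS7B01G453100LC, just after the stretch, had no counts in either mutant and 0, 3, 2 and 3 in WT. Apart from TraesCS7B01G426000LC, these members had few counts in WT.

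TraesCS7B01G441600LC, inside the WT-silent stretch, is annotated as a bZIP transcription factor resembling HY5, which promotes light-dependent development in *Arabidopsis* seedlings. It had 298, 193, 215 and 311 counts in *phyB*-null, 77, 65, 133 and 76 in *phyC*-null, and 17, 11, 13 and 19 in WT. No 2 genotypes overlapped, and the level was 13.2 ± 3.77 TPM in *phyB*-null, 3.76 ± 0.689 TPM in *phyC*-null and 0.805 ± 0.191 TPM in WT (SD, n = 4 each). The log2 fold change over WT was 4.11 (SE 0.24) in *phyB*-null and 2.37 (SE 0.34) in *phyC*-null. TraesCS7B01G434200LC, annotated as a membrane protein with an SPX domain, a domain known for sensing phosphate status, had 254, 216, 202 and 252 counts in *phyB*-null, 55, 70, 89 and 54 in *phyC*-null, and 42, 44, 37 and 38 in WT. Here every *phyB*-null library was above all the others, while *phyC*-null and WT overlapped once scaled to library size, with log2 fold changes over WT of 2.56 (SE 0.17) in *phyB*-null and 0.57 (SE 0.27) in *phyC*-null.

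After the WT-silent stretch, TraesCS7B01G461800LC went the other way. This model, annotated as resembling cysteine synthase, the enzyme of the last step of cysteine synthesis, had 337, 386, 407 and 454 counts in *phyB*-null, 707, 526, 409 and 763 in *phyC*-null, and 2232, 2107, 1999 and 2169 in WT. All mutant libraries were below all WT libraries, at log2 fold changes of -2.39 (SE 0.11) in *phyB*-null and -2.03 (SE 0.16) in *phyC*-null. It stands next to TraesCS7B01G461900LC, which was nearly without counts in WT. TraesCS7B01G455200LC, annotated as a receptor-like kinase with leucine-rich repeats, a class of cell surface receptors, had 101, 27, 29 and 61 counts in *phyB*-null, 84, 74, 31 and 47 in *phyC*-null, and 227, 470, 321 and 60 in WT. Its WT replicate 4 lay among the mutant libraries. TraesCS7B01G455300LC and TraesCS7B01G455400LC, its neighbours, also had WT replicate 4 lowest of WT, at 329 and 603 counts and the other WT libraries between 977 and 3175.

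**Figure D4:**
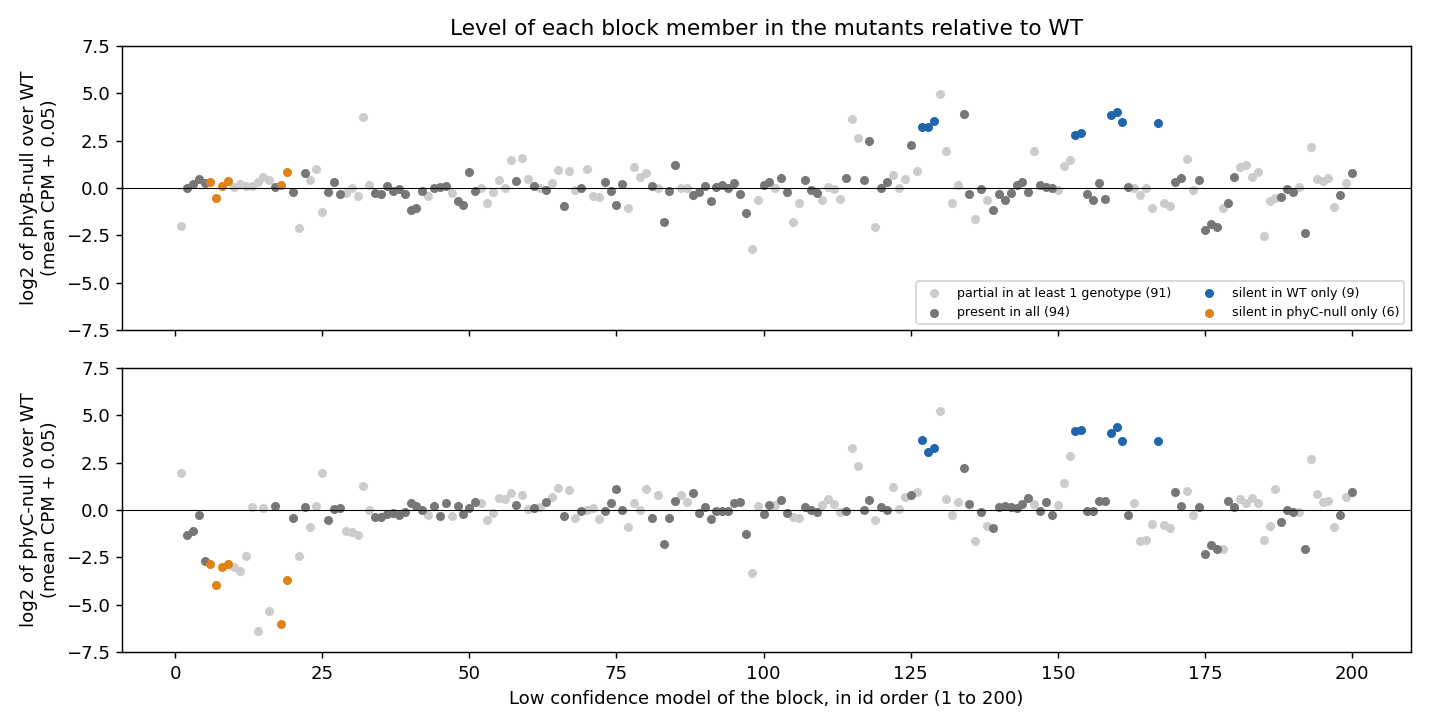
Log2 ratio of mean CPM, with 0.05 CPM added to each mean, for each member in id order in *phyB*-null over WT (upper plot) and *phyC*-null over WT (lower plot), with points coloured by presence pattern. Ratios of models without counts in a genotype depend on the added 0.05 CPM and show direction only. The *phyC*-null-silent models fall far below 0 in *phyC*-null over WT and stay near 0 in *phyB*-null over WT.

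Most of the members present in all genotypes changed little. TraesCS7B01G403800LC, the member with the highest level per length, was at 192 ± 14.6 TPM in *phyB*-null, 162 ± 24.4 TPM in *phyC*-null and 214 ± 17.2 TPM in WT (SD, n = 4 each). TraesCS7B01G422300LC was at 13.5 ± 1.66 TPM in *phyB*-null, 16.2 ± 3.78 TPM in *phyC*-null and 23.4 ± 2.44 TPM in WT. TraesCS7B01G456700LC was at 117 ± 11.1 TPM in *phyB*-null, 89.6 ± 18.7 TPM in *phyC*-null and 83.9 ± 11.6 TPM in WT. In TraesCS7B01G422300LC the *phyB*-null counts, 1348 to 1669, were below all WT counts, 2266 to 2797, whereas in TraesCS7B01G456700LC they were above them, at 1381 to 1723 against 956 to 1313. TraesCS7B01G435600LC, annotated as an inosine-uridine nucleoside hydrolase, an enzyme that splits nucleosides into base and ribose, was at 6.49 ± 0.889 TPM in *phyB*-null, 7.61 ± 2.28 TPM in *phyC*-null and 7.04 ± 0.564 TPM in WT. Of the 57 members present in all genotypes between the runs, 49 changed by less than 2-fold in *phyB*-null over WT and 54 in *phyC*-null over WT. TraesCS7B01G404000LC and its neighbour TraesCS7B01G404100LC were exceptions, with log2 fold changes in *phyB*-null over WT of -1.16 (SE 0.18) and -1.08 (SE 0.13), while in *phyC*-null over WT they were 0.37 (SE 0.16) and 0.19 (SE 0.17). TraesCS7B01G404000LC had 87, 56, 84 and 122 counts in *phyB*-null, 228, 289, 302 and 341 in *phyC*-null, and 199, 184, 237 and 174 in WT, so that every *phyB*-null library was below all the others. TraesCS7B01G419400LC had 19, 31, 26 and 37 counts in *phyB*-null, 47, 43, 22 and 23 in *phyC*-null, and 111, 72, 148 and 100 in WT, where both mutants lay under WT and overlapped each other. TraesCS7B01G437300LC, close to the start of the WT-silent run, had 29, 21, 80 and 56 counts in *phyB*-null, 26, 28, 9 and 7 in *phyC*-null, and 7, 3, 19 and 4 in WT, so that *phyB*-null lay above WT and overlapped *phyC*-null.

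Across all models, an edgeR quasi-likelihood fit of each pair of genotypes called models at a Benjamini-Hochberg adjusted p below 0.01. In *phyB*-null over WT it called 26 members, 20 higher and 6 lower, where 11.9% of all models were called, 5.97% higher and 5.95% lower. In *phyC*-null over WT it called 23 members, 14 higher and 9 lower, where 0.796% of all models were called, 0.422% higher and 0.374% lower. In *phyB*-null over *phyC*-null it called 22 members, 17 higher and 5 lower, where 3.41% of all models were called, 1.4% higher and 2.02% lower. Since these contrasts chose the block, nothing is read from the shares. Both mutants share the WT libraries. Without WT replicate 3 the count in *phyC*-null over WT was 15, and without both WT replicates 2 and 3 it was 9, of which 3 were higher and 6 lower. The split of this comparison also turned with DESeq2, to 17 higher and 20 lower, and at an adjusted p below 0.05, to 15 higher and 16 lower. The median log2 fold change of the members was 0.03 in *phyB*-null over WT, against 0.00 over all models, and 0.14 in *phyC*-null over WT, against 0.06.

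The calls of both mutants over WT shared the WT-silent stretch, and those between the mutants were most numerous in the *phyC*-null-silent one, with 11 of 22. In the *phyC*-null-silent stretch, 7 of 14 members were called lower in *phyC*-null over WT, 11 were called higher in *phyB*-null over *phyC*-null and none was called in *phyB*-null over WT. In the WT-silent stretch, 11 of 41 were called higher in *phyB*-null over WT, 12 were called higher in *phyC*-null over WT, and 1, TraesCS7B01G441600LC, was called higher in *phyB*-null over *phyC*-null. Between the runs, *phyB*-null over WT called 6 members higher and 4 lower of 107, *phyC*-null over WT called 1 higher and none lower, and *phyB*-null over *phyC*-null called 3 higher and 4 lower. The bounds of these stretches were set by the silent models themselves. That *phyC*-null stood apart in the first and WT in the second therefore restates the patterns and is no further evidence of a switch.

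At the far end of the range the members did not mark a change of pattern. At its start the first member, TraesCS7B01G392200LC, had no counts in *phyB*-null, unlike the models just outside. Just outside, TraesCS7B01G391500LC and TraesCS7B01G391600LC before the block were present in all genotypes, as was TraesCS7B01G464100LC after it, with 76, 61, 97 and 88 counts in *phyB*-null, 89, 53, 78 and 60 in *phyC*-null, and 12, 19, 28 and 21 in WT. TraesCS7B01G464800LC, the next one, was partial. Just inside, TraesCS7B01G463900LC had at most 4 counts in any library, and TraesCS7B01G464000LC had 214, 253, 266 and 295 counts in *phyB*-null, 417, 249, 226 and 499 in *phyC*-null, and 159, 189, 124 and 129 in WT. In both TraesCS7B01G464000LC and TraesCS7B01G464100LC every WT library was below every mutant library, inside and outside the limit alike.

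**Figure D5:**
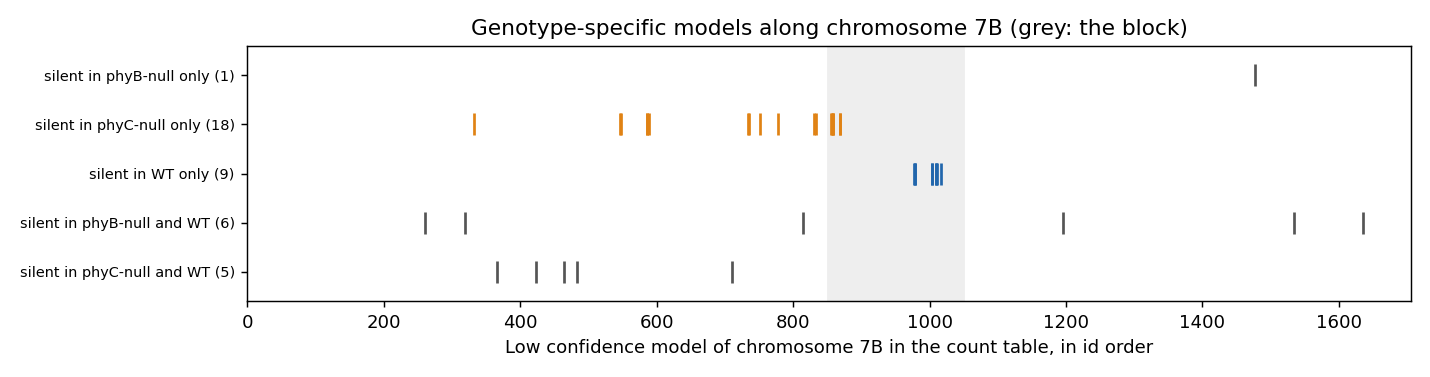
Position of every genotype-specific low confidence model of chromosome 7B among the 1704 in id order, with 1 line for each pattern and the block in grey. All 9 models silent in WT only lie in the block, and the models silent in *phyC*-null only are 12 before it and 6 near its start. The block was chosen by these counts, so that this placement partly follows from the choice.

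The *phyC*-null-silent pattern was also present ahead of the block, and the WT-silent one was not found elsewhere among the low confidence models of 7B. The range was chosen by these counts, so that this placement partly follows from the choice. Both patterns also occurred on other chromosomes. Of 20124 low confidence models outside 7B, 18 were silent in WT only and 5 in *phyC*-null only. Of the 850 low confidence models of 7B before the block, 12 were silent in *phyC*-null only, from TraesCS7B01G177900LC to TraesCS7B01G385100LC, 5 in *phyC*-null and WT, and 3 in *phyB*-null and WT. One of the 12, TraesCS7B01G362600LC, had 105, 149, 105 and 154 counts in *phyB*-null, none in *phyC*-null, and 245, 93, 84 and 253 in WT, with WT replicates 2 and 3 again the lower ones. Of the 654 models after the block, 4 had a clear difference, 3 silent in *phyB*-null and WT and 1 silent in *phyB*-null only. After TraesCS7B01G398500LC no low confidence model of the chromosome was silent in *phyC*-null only.

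High confidence models of 7B had no part in choosing the block, and were fitted in the same edgeR fits. Those named were picked by their pattern of counts, so that their values are a description without a test. They are numbered separately, so that none could be placed inside or outside the block. 1 of 3219 was silent in WT only. TraesCS7B01G251300 had 65, 180, 162 and 135 counts in *phyB*-null, 214, 275, 536 and 331 in *phyC*-null, and 0, 0, 0 and 1 in WT. The ratios to WT were 559 (99.8 to 22103) in *phyB*-null and 1191 (213 to 47091) in *phyC*-null. All mutant libraries were above all WT libraries, as the presence rule requires. Silent in *phyC*-null only were TraesCS7B01G099900 and TraesCS7B01G177000. TraesCS7B01G177000 had 108, 136, 112 and 132 counts in *phyB*-null, none in *phyC*-null, and 111, 58, 57 and 123 in WT. Its ratio to *phyC*-null was at least 191 in *phyB*-null and at least 132 in WT, and its WT replicates 2 and 3 were the lowest of WT. The other high confidence models with a clear difference had patterns not found in the block. Of these, 4 were silent in both mutants, 4 in *phyB*-null and WT, 4 in *phyC*-null and WT, and 3 in *phyB*-null only. Over the chromosome, the fits called 509 high confidence models in *phyB*-null over WT (15.8%), 34 in *phyC*-null over WT (1.06%) and 153 in *phyB*-null over *phyC*-null (4.75%). Leaving out 1 library gave 325 to 500, 18 to 57 and 84 to 219 calls in these comparisons.

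The count table leaves out models with few counts, and many models of the range are among these. The TPM table, which has no such filter, lists 719 low confidence models in the id range, of which 519 were not in the count table. Of these, 456 were at 0 TPM in every library and 63 were above 0 in at least 1, at no more than 0.251 TPM. The runs are therefore read from the 200 models with enough counts to enter the count table.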

How the data were processed

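Leaf RNA of 3 genotypes was sequenced in 12 libraries (100 bp single-end reads), which the authors aligned to the IWGSC RefSeq v1.0 assembly (GSNAP) and assigned to gene models with htseq-count where a read mapped uniquely, so that reads fitting several copies equally are lost. Tool versions and the strand setting are not given in the sources used here, and antisense or overlapping models cannot be told apart. The counts deposited by the authors are not normalized and leave out genes with fewer than 3 counts in every library. The deposited TPM values have no filter and were used for levels, for the models not in the count table and for 1 alternative presence limit.

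Members were taken by identifier. The members and lists were chosen with earlier results of these data known. Pairs of genotypes (8 libraries) were fitted over all 72120 models with edgeR 4.0.16 in R 4.3.3 (TMM factors, quasi-likelihood test, no covariate, Benjamini-Hochberg adjusted p below 0.01). Standard errors derive from the F statistic. Fold ratios use summed counts per effective library size, with a floor of 3 counts over a group at 0 and an exact 95% counting interval for 1 to 3 counts. Annotations of 9 members come from the tables of the study. Named were these, the 4 most abundant members of each pattern, the 4 highest present in all, the 3 called ones with the largest change in each direction and comparison, and those beside the switch and at the range ends. Other members were named after their values were seen, as neighbours of the named members or as examples of a pattern that the text describes. Of the high confidence models with a clear pattern, those silent in *phyC*-null only or in WT only were named. Alternatives were DESeq2 1.42.0, median-of-ratios factors, a low-count filter, an adjusted p below 0.05, all libraries in 1 fit, a replicate block, other presence limits, and leaving out libraries. The main edgeR fit of each comparison was tried on simulated data, and the alternatives were not.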

Additional observations from a re-analysis of the deposited data

How the results depend on the processing

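The 9 models silent in WT only stayed within 1.5 times that number under every alternative run, and numbered 9 to 10 when 1 library was left out. The count of models silent in *phyC*-null only was 2 with TPM limits, 3 with at least 10 counts required for presence and 1 with no count allowed for silence, and 6 to 8 when 1 library was left out. All genotype-specific members numbered 23 with presence at 1 count in each library, 9 with no count allowed for silence, and 15 to 17 without 1 library. These moves follow from the changed limits. Members called in *phyC*-null over WT were 37 with DESeq2, 9 without both WT replicates 2 and 3 (an alternative added after seeing the data), and 15 to 25 without 1 library, the lowest without WT replicate 3. Calls in *phyB*-null over WT were 22 to 30, and in *phyB*-null over *phyC*-null 16 to 21, without 1 library. High confidence calls of 7B in *phyB*-null over WT were 330 with the replicate block, 210 without both WT replicates 2 and 3, and 325 to 500 without 1 library (339 without WT replicate 2, 325 without *phyB*-null replicate 3). In *phyC*-null over WT they were 138 with DESeq2, 20 without both WT replicates 2 and 3, and 18 to 57 without 1 library (19, 20 and 18 without WT replicates 1, 2 and 3, 22 and 57 without *phyC*-null replicates 2 and 3). In *phyB*-null over *phyC*-null they were 381 with DESeq2 and 84 to 219 without 1 library (84 and 95 without *phyB*-null replicates 3 and 4). What the changes in the numbers of calls come from was not tested.

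The deviations of same-numbered libraries from their genotype means correlated between -0.53 and 0.55, so that no steady pairing by replicate number was seen. These correlations cannot exclude a shared factor. They do not address the sequencing lanes, since which replicates shared a lane is not given. With the number as a block, 22, 21 and 19 members were called in *phyB*-null over WT, *phyC*-null over WT and *phyB*-null over *phyC*-null, and 330, 48 and 127 high confidence models of 7B. In *phyC*-null over WT the calls were mostly higher (14 of 23), but mostly lower with DESeq2 (20 of 37), at an adjusted p below 0.05 (16 of 31) and without both WT replicates 2 and 3 (6 of 9). Many members had fewer than 10 counts per library, where a missing count says little.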
